A study of Rattus norvegicus with 12 samples.

Results

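Complement C3 and lipocalin 2, 2 of the 32623 Ensembl rat genes in the deposited count table, were followed through cultured adult rat ventricular fibroblasts. They were taken by identifier, ENSRNOG00000046834 for C3 and ENSRNOG00000013973 for Lcn2. The names were supplied with the identifiers, and the table itself pairs none of its identifiers with names. C3 was picked because it rose with passage on soft gel and was nearly absent from 1 pair of cultures at passage 6, so its passage difference on soft gel and its low level in that pair are given as descriptions with no test.

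The cells were wild-type, came from the heart and grew in medium with 20% fetal bovine serum. A passage is one round of detaching cells and plating them again. At passage 3 and at passage 6 the cells stayed on polystyrene, the rigid plastic of culture dishes, or were moved for 48 h onto a flat, soft PEG-norbornene hydrogel, a water-swollen synthetic polymer network. The 4 groups (plastic or soft gel, passage 3 or passage 6) held 3 libraries each, described as biological replicates without saying whether they came from separate animals, so p-values cover only how these libraries varied, which may be technical. Within a passage, plastic and soft gel libraries of equal number shared their departures from the group means across genes, and they are called a pair.

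C3 is the protein on which all routes of complement activation meet. Its cleavage releases an anaphylatoxin that calls in immune cells and a fragment that binds covalently to surfaces and marks them for uptake. The liver makes most of the C3 in blood, and fibroblasts make it locally under inflammatory cytokines. Lipocalin 2, also called NGAL, is a small secreted protein that binds bacterial iron carriers and so withholds iron from microbes; it also forms a complex with the matrix protease MMP9. Both genes are acute phase genes with known regulation by NF-kB and C/EBP transcription factors, and lipocalin 2 is followed as a marker of injury in heart and kidney.

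Because both genes have known C/EBP control, the 250 bases before each RefSeq gene start (GRCr8, a newer build than the Rnor_6.0 of the counts) are shown, 5′ to 3′ on the gene's strand. Both symbols had 1 entry, and both genes lie on the minus strand, C3 at chr9:2201340-2201589 and Lcn2 at chr3:36081781-36082030. Capitals mark matches to the C/EBP letters TTGCNNAA in both genes and, in Lcn2, also the match further upstream to the NF-kB consensus.
C3: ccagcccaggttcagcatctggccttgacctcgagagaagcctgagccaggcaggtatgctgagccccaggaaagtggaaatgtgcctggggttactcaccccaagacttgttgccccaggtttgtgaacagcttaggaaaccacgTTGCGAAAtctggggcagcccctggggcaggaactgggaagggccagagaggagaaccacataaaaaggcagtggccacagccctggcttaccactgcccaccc
Lcn2: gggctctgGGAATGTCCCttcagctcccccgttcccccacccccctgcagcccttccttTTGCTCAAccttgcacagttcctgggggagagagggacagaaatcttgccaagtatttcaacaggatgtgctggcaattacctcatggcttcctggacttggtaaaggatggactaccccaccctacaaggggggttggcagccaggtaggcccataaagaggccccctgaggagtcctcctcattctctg

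Each promoter held 1 match to TTGCNNAA, searched on both strands, beginning 104 bases before the start in C3 and 191 bases before it in Lcn2. These letters occur in 9.22% of the 33469 rat promoter windows of this length. Lcn2 held 1 match to the NF-kB consensus, read on the opposite strand and beginning 242 bases before the start, which 3.54% of windows hold, and C3 held none. The AP-1 letters TGANTCA (6.34% of windows) and the STAT letters TTCNNNGAA (7.67%) were in neither promoter. A match describes letters in the window and does not show that a factor was bound.

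The libraries held 47834926 to 71464905 counts. Levels are given as CPM, counts divided by the scaled library total and put on the usual common scale, and CPM are compared here between libraries and not between the genes, whose transcript lengths differ. On the second principal component of the 500 most variable genes, pair 3 of passage 6 stood at -50.4 for its plastic library and -45.8 for its soft gel library, with the other 10 libraries between -6.02 and 28.6. The passage differences, the soft gel difference at passage 6 and the likeness of C3 and Lcn2 over all libraries are given with and without it. The scaling factors were 0.909 to 0.993 for the plastic libraries and 1.02 to 1.11 for the soft gel libraries, so the scaling lowered soft gel levels relative to plastic. Fewer cells that express a gene and less of its RNA per cell cannot be told apart in such bulk libraries. Markers of fibroblasts or of other cells were not used here, because they are known by name only, so the labelled cell type was not checked and a part of other cells in the values was not tested.

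At passage 3 both transcripts were scarce. C3 on plastic gave 34, 49 and 51 counts, or 0.59, 0.747 and 0.88 CPM, and on soft gel 59, 28 and 194 counts, or 0.976, 0.478 and 3.15 CPM. The soft gel library of pair 3 was the highest of these 6, and the other 5 overlapped. Lcn2 on plastic gave 1, 27 and 4 counts, or 0.0174, 0.412 and 0.069 CPM, and on soft gel 15, 16 and 63 counts, or 0.248, 0.273 and 1.02 CPM. The soft gel library of pair 3 was again the highest, and the ranges of plastic and soft gel overlapped. With counts this low the counting error of single values is wide: the exact 95% Poisson interval for the lowest Lcn2 library, plastic library 1, ran from 0.000439 to 0.0967 CPM.

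At passage 6 C3 stood at 17.7, 25.5 and 0.799 CPM in plastic libraries 1, 2 and 3, and at 89.3, 363 and 5.84 CPM in soft gel libraries 1, 2 and 3. Both libraries of pair 3 were far below those of the other pairs on the same substrate, and plastic library 3 lay within the passage 3 plastic range of C3. Lcn2 stood at 5.35, 9.07 and 1.5 CPM on plastic and at 26.4, 90 and 6.1 CPM on soft gel. Pair 3 was again the lowest and pair 2 the highest on each substrate, but here all 6 libraries of passage 6 exceeded the highest library of passage 3, at 1.02 CPM. The share of all genes that did so was not counted, so this describes Lcn2 only. In the richest library, soft gel library 2, C3 had 21597 counts, 0.0378% of all counts, and Lcn2 had 5356, or 0.00939%.

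**Figure D1:**
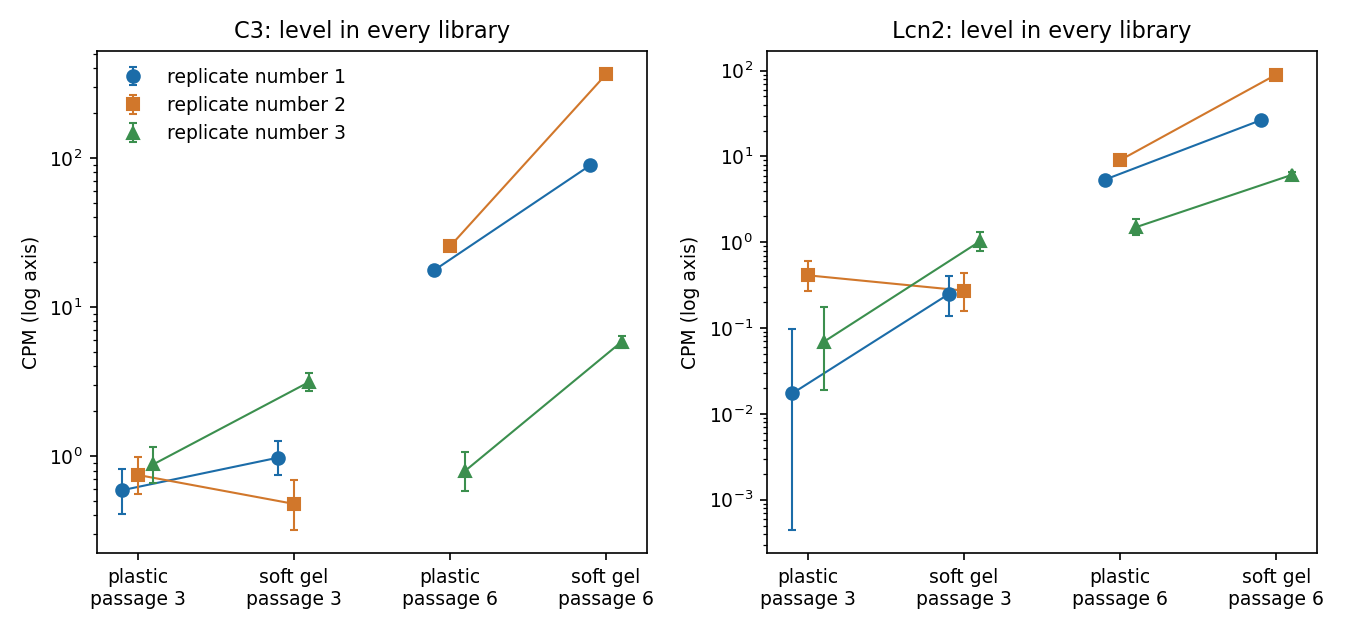
CPM of C3 (left) and Lcn2 (right) in each of the 12 libraries on log axes, with 1 point per library; bars are exact 95% Poisson limits, which cover counting error only, and lines join the plastic and soft gel libraries of a pair within a passage. C3 reaches 363 CPM in soft gel library 2 of passage 6 and stays at 5.84 CPM or less in pair 3, while Lcn2 is above its passage 3 levels in all 6 passage 6 libraries.

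The order of the 4 groups by mean CPM was the same for both genes. C3 averaged 0.739 ± 0.145 CPM on plastic and 1.53 ± 1.42 CPM on soft gel at passage 3 (SD, n = 3). At passage 6 its means were 14.6 ± 12.6 and 153 ± 187 CPM in the same order. For C3 every neighbouring pair of groups in that order overlapped, and soft gel at passage 6 lay above both passage 3 groups without overlap. Lcn2 averaged 0.166 ± 0.214 and 0.515 ± 0.44 CPM at passage 3 and 5.3 ± 3.78 and 40.8 ± 43.8 CPM at passage 6. For Lcn2 the 2 passage 3 groups overlapped, the 2 passage 6 groups overlapped, and the passages did not. How many of the 14660 genes past the filter on low counts kept the groups or passages apart in this way was not counted. On the log2 scale the SD within soft gel at passage 6 was 3.03 for C3, larger than that of 99.1% of the 14660 genes past the filter on low counts, and 1.94 for Lcn2, larger than that of 97.2%; for C3 this spread is part of what it was chosen for.

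The first question was how the 2 genes differed between early and later passage on rigid plastic. Lcn2 rose, with a fitted log2 fold change of 4.92 ± 1.22 (SE, edgeR adjusted p = 0.0235), about 30.3-fold. C3 had a fitted log2 fold change of 4.30 ± 1.46 and missed the threshold of 0.05 (edgeR adjusted p = 0.0753). This comparison of C3 includes plastic library 3 of passage 6, from the pair named in its choice. So 1 of the 2 genes passed, where 13.4% of the 14660 genes passed and 7.67% passed as higher at passage 6. Replicate numbers did not pair the passages, so passaging and whatever else set the cultures of each passage apart cannot be told apart. Both genes passed the filter on low counts, Lcn2 through the 3 groups other than plastic at passage 3.

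The single libraries mattered here. Without both libraries of pair 3 of passage 6, the log2 fold change of Lcn2 on plastic was 5.35 ± 0.88 (edgeR adjusted p = 0.00633). That of C3 was then 4.86 ± 0.75, given with no test, since C3 was picked for its low level in that pair and leaving the pair out narrows its spread by that choice. With all libraries kept, C3 came under the threshold in DESeq2 (adjusted p = 0.00759), which called 2933 of the 14660 genes in this comparison, against 1968 in edgeR. That p of C3 is not independent of its choice, since the fit includes plastic library 3 of passage 6. Lcn2 missed the threshold without plastic library 1 or 3 of passage 3 or plastic library 2 of passage 6 (edgeR adjusted p = 0.0838, 0.0955 and 0.054). Without plastic library 2 of passage 3, which held 27 Lcn2 counts against 1 and 4 in the others of its group, the fold change of Lcn2 was 6.86 on the log2 scale. In limma-voom, which here took the pair as a random effect, the adjusted p of Lcn2 was 0.494 and that of C3 0.635. The fit averages counts, so libraries with high counts weigh most: as a difference of mean log2 CPM the change was 3.24 for C3 and 5.0 for Lcn2.

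On soft gel, the same comparison asked how the passages differed in cells that had spent 48 h on the soft surface. Lcn2 rose by a fitted log2 fold change of 6.30 ± 1.19 (SE, edgeR adjusted p = 0.0085), about 78.7-fold, and all 3 libraries of passage 6 exceeded all 3 of passage 3. The call held in the 12 fits that left out 1 library each, at an adjusted p of 0.0443 or lower, and was lost in limma-voom (adjusted p = 0.198). In this comparison 12.3% of the genes passed, 6.76% as higher at passage 6. C3, chosen on this difference, had a fitted log2 fold change of 6.63 ± 1.53, which was 4.95 when soft gel library 2 of passage 6 was left out and 7.71 when soft gel library 3 of passage 3 was. Without pair 3 of passage 6 it was 7.20 ± 0.77. As a difference of mean log2 CPM it was 5.61 for C3 and 5.77 for Lcn2. Over pair means, with plastic and soft gel averaged, Lcn2 was higher at passage 6 by 5.38 on the log2 scale; the exact two-sided permutation test of 3 against 3 pairs gave p = 0.1, the smallest it can give.

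The comparison of soft gel with plastic at passage 6 asked how later-passage cells differed after 48 h on the soft surface. C3 was higher on soft gel in each pair, by 5.06-fold in pair 1, 14.25-fold in pair 2 and 7.31-fold in pair 3. Lcn2 was higher by 4.94-fold in pair 1, 9.93-fold in pair 2 and 4.08-fold in pair 3. Pair 3, where both genes were lowest, thus showed a soft gel difference within the range of the other pairs for C3 and just below it for Lcn2.

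With a term for each pair, Lcn2 rose on soft gel at passage 6 by a log2 fold change of 2.59 ± 0.40 (SE, edgeR adjusted p = 0.00145). In this fit 24.9% of the genes passed and 12.3% passed as higher on soft gel. C3 stood at 3.05 ± 0.34 in the same fit. It is given with no test, since its choice used the soft gel libraries of passage 6 and both libraries of pair 3. The p-values of C3 in the other fits of this comparison are not independent of that choice either. Lcn2 passed in each of the 6 fits with a pair left out, with log2 fold changes of 2.18 to 2.82, and the log2 fold changes of C3 in these fits were 2.53 to 3.56. Without the pair term the differences were 3.39 ± 1.29 for C3 and 2.95 ± 0.99 for Lcn2, and 0 of the 2 passed (edgeR adjusted p = 0.131 and 0.0891), where 9.96% of the genes did, 4.87% as higher on soft gel. Before adjustment 2 of the 2 were under 0.05 in edgeR, as were 3545 of the 14660 genes. DESeq2 called 0 of the 2 (adjusted p = 0.0534 and 0.0634), and so did limma-voom with the pair as a random effect (adjusted p = 0.0975 and 0.0639). Of the 14660 genes, DESeq2 called 2269 and limma-voom 3434. Without soft gel library 2 and with no pair term the differences were 1.70 for C3 and 1.62 for Lcn2 on the log2 scale. The within-pair differences of C3 ran from 2.34 to 3.83 in log2 CPM, while its log2 SD between libraries on one substrate was 2.71 on plastic and 3.03 on soft gel.

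Without pair 3 of passage 6 and with no pair term, Lcn2 stood at 3.02 ± 0.80 (edgeR adjusted p = 0.0534). C3 stood at 3.39 ± 0.75, as large as with the pair, and is again given with no test because its choice used that pair. Lcn2 passed without soft gel library 3 alone, at 3.46 (edgeR adjusted p = 0.0413).

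**Figure D2:**
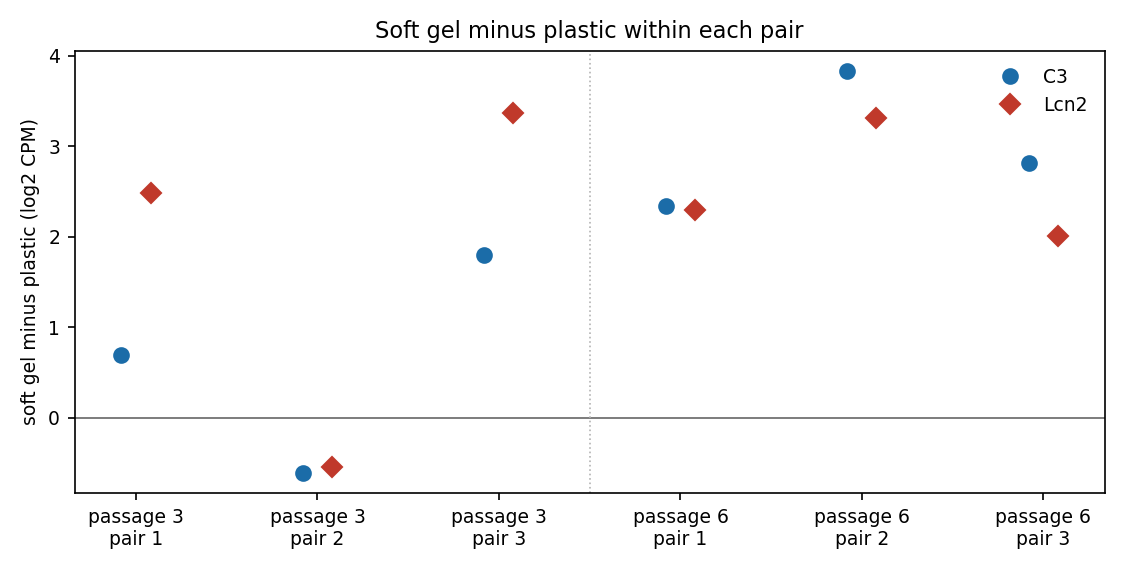
Soft gel minus plastic in log2 CPM (prior count 2) within each of the 6 pairs, with 1 point per gene and pair; 0 is no difference and the dotted line divides the passages. All 3 pairs of passage 6 lie between 2.0 and 3.83, and pair 2 of passage 3 is the only pair below 0 for either gene.

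At passage 3 the same comparison gave no call for either gene. The soft gel libraries of passage 3 are also in the contrast that chose C3, so the p-values of C3 here are not independent of that choice. C3 was 1.65-fold higher on soft gel in pair 1, 1.56-fold lower in pair 2 and 3.58-fold higher in pair 3. Lcn2 was higher on soft gel by 14.3-fold in pair 1, where plastic held 1 count (95% interval 2.2 to 602, counting error only), 1.51-fold lower in pair 2 and 14.8-fold higher in pair 3, where plastic held 4 counts. Both genes were higher on soft gel in pairs 1 and 3. In pair 2 the counting intervals of the soft gel to plastic ratio included no change for both, from 0.387 to 1.04 for C3 and from 0.334 to 1.28 for Lcn2. With the pair term the log2 fold change was 0.88 ± 0.48 for C3 (95% interval -0.21 to 1.96, edgeR adjusted p = 0.246) and 1.54 ± 0.74 for Lcn2 (95% interval -0.12 to 3.21, edgeR adjusted p = 0.186), and 18.8% of the genes passed, 8.85% as higher on soft gel. Without it the values were 1.06 ± 1.48 and 1.57 ± 1.27 (edgeR adjusted p = 0.75 and 0.544), with 2.3% of the genes passing and 1.13% as higher on soft gel. Before adjustment neither gene was under 0.05 in edgeR, with or without the pair term, and DESeq2 called neither. Of the 14660 genes, 4706 were under 0.05 before adjustment with the pair term and 2814 without it, and DESeq2 called 1256.

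These passage 3 values rested on single pairs. Without pair 2 of passage 3 Lcn2 passed with the pair term, at 3.83 ± 0.71 (edgeR adjusted p = 0.023), and without pair 3 of passage 3 it stood at 0.37 ± 0.77 (edgeR adjusted p = 0.831). C3 stood at 0.08 ± 0.55 without pair 3 of passage 3 and, without the pair term, at -0.022 without soft gel library 3 of that passage.

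**Figure D3:**
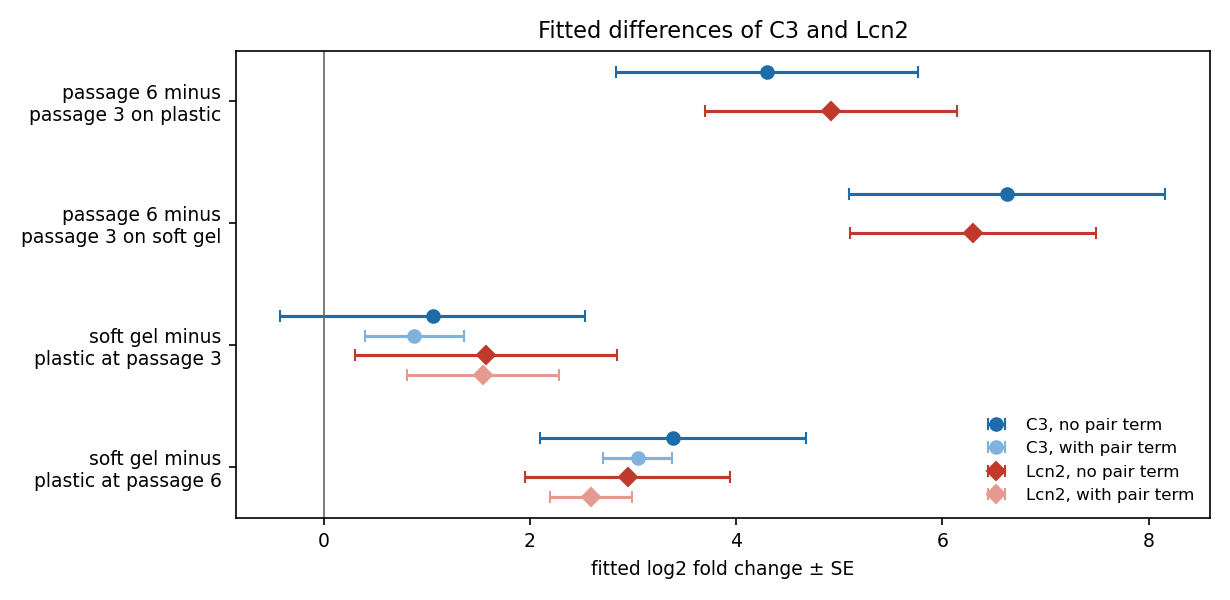
Fitted log2 fold changes of C3 and Lcn2 (points) with their SE (bars) in the 4 comparisons, without a pair term and, for the substrate comparisons, with one. The passage differences on both substrates are the largest, from 4.30 to 6.63, and the pair term narrows the soft gel difference at passage 6 to 3.05 ± 0.34 for C3 and 2.59 ± 0.40 for Lcn2.

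A test of interaction compared the soft gel difference between the passages. For Lcn2 the difference of log2 fold changes, passage 6 minus passage 3, was 1.05 ± 0.89 with the pair term (95% interval -0.97 to 3.06, edgeR adjusted p = 0.637), and 2.14% of the genes passed. Without the pair term it was 1.38 ± 1.63 (edgeR adjusted p = 0.959), where edgeR called 0 genes, with 1044 under 0.05 before adjustment, and DESeq2 called 103. Its direction turned without pair 2 of passage 3, to -1.25 ± 0.85 with the pair term. With no pair term it turned to -0.56 ± 2.07 when plastic library 2 of passage 3 was left out and was 0.04 ± 2.06 when soft gel library 2 of passage 6 was. For C3 the value contains the contrast that chose it; with the pair term it was 2.17 ± 0.60, and with no pair term it was 2.33 ± 1.92, or 0.65 ± 1.73 when soft gel library 2 of passage 6 was left out. Over all 6 pairs together, the mean soft gel minus plastic difference was 1.81 ± 1.58 log2 CPM for C3 and 2.15 ± 1.43 for Lcn2 (SD, n = 6 pairs), higher on soft gel in 5 of 6 pairs for each. The exact two-sided sign-flip permutation test over 64 arrangements gave p = 0.0625 for each gene, where the smallest it can give is 0.0312. The soft gel libraries in this test also make up the contrast that chose C3, so the p of C3 is not independent of that choice.

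The 2 genes kept a similar ratio in the libraries where both were high. There were 3.30 C3 counts per Lcn2 count in plastic library 1 of passage 6, 2.81 in plastic library 2, 3.38 in soft gel library 1 and 4.03 in soft gel library 2. In pair 3 of passage 6 the ratio was 0.534 on plastic and 0.957 on soft gel, lower than in the other 10 libraries. At passage 3 it ran from 1.75 to 34, on as few as 1 Lcn2 count.

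The gap between pair 3 and the other pairs was wider for C3 than for Lcn2. Against the mean CPM of pairs 1 and 2 on the same substrate at passage 6, pair 3 was 27-fold lower for C3 on plastic and 38.7-fold lower on soft gel, and for Lcn2 4.82-fold lower on plastic and 9.54-fold lower on soft gel. By the log2 CPM difference, 93 of the 14660 genes were lower in pair 3 by more than C3 on plastic and 130 on soft gel, and 522 and 375 by more than Lcn2. In 102 genes the other 4 passage 6 libraries all reached 1 CPM and had a mean 20 times that of pair 3 or more. C3 was among them, at 37.3 times, and Lcn2, at 8.61 times, was not. These values include the feature C3 was chosen for and describe these libraries only.

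**Figure D4:**
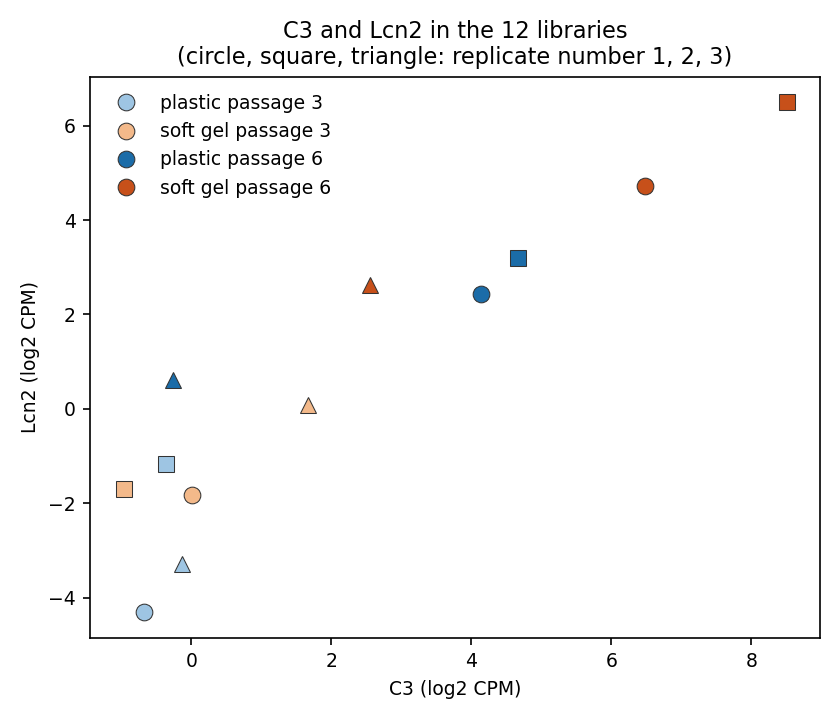
Log2 CPM (prior count 2) of C3 and Lcn2 in the 12 libraries, coloured by group, with the replicate number as the marker shape. The libraries of pairs 1 and 2 at passage 6 lie at the upper right, and the 2 triangles of passage 6 (pair 3) lie apart from them, with Lcn2 at 0.613 and 2.62 and C3 at -0.27 and 2.55.

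Across the 6 libraries of passage 6, the log2 CPM of C3 and Lcn2 gave a Pearson's r of 0.97 and a Spearman's rho of 0.943, and across the 6 of passage 3 r = 0.64 and rho = 0.371. These are descriptions with no p, since the 6 libraries of a passage form 3 pairs whose libraries deviate together, and Lcn2 rests on 1 to 63 counts a library at passage 3. Among 10467 other genes with a group mean of at least 5 CPM, Lcn2 was the 18th most like C3 over the 12 libraries, at Pearson's r = 0.927, and C3 was the 22nd most like Lcn2. By Spearman's rho, 0.846, the places were 79 and 180, and without pair 3 of passage 6 they were 12 and 9 at r = 0.967.

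The genes most like C3 were ENSRNOG00000013229 (r = 0.977) and ENSRNOG00000011459 (r = 0.975), and those most like Lcn2 were ENSRNOG00000015573 and ENSRNOG00000013631 (both r = 0.965). Their likeness is one of pattern and not of size. ENSRNOG00000013229 ran only from 9.11 to 10.9 CPM at passage 3, with 13.7, 13.7 and 9.23 CPM on plastic and 17.2, 16.7 and 12.02 CPM on soft gel at passage 6. ENSRNOG00000015573 ran from 36.5 to 43.6 CPM at passage 3, with 54.6, 51.3 and 48.9 CPM on plastic and 56.5, 59.8 and 51.8 CPM on soft gel at passage 6. The ranking used these same libraries, pair 3 of passage 6 included, so a low pair 3 is partly set by it. In these 2 genes pair 3 was the lowest of its groups at passage 6, as it was for C3 and Lcn2. In ENSRNOG00000013631 it was the lowest on soft gel, with 20.8, 24.3 and 18.0 CPM, but not on plastic, with 14.6, 16.8 and 15.6 CPM. ENSRNOG00000011459 had 14.7, 14.5 and 9.9 CPM on plastic and 20.3, 25.3 and 13.9 CPM on soft gel, with pair 3 the lowest on both.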

How the data were processed

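Per the labels' protocols, the 12 libraries were made from polyadenylated RNA and read from both ends, 150 bases each. The authors deposited raw counts per Ensembl rat gene, which were not normalized. HISAT2 2.1.0, FastQC 0.11.5, Cuffnorm 2.2.1, Cufflinks and the build Rnor_6.0 are named in the submitters' processing notes. How reads were counted, and whether by strand, is not given in the sources used here, so reads of overlapping or antisense genes could not be separated. None (0) of the identifiers matched the RefSeq tables, so the gene and marker lists, given by name, were not tested. No column of per-sample values was left out.

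The members and lists were chosen with earlier results of these data known. The tools were edgeR 4.0.16, DESeq2 1.42.0 and limma 3.58.1 in R 4.3.3, and scipy 1.17.1, pandas 2.3.3, matplotlib 3.10.9 and numpy 2.4.6 in Python 3.11.15. A filter on low counts (filterByExpr, minimum count 10, minimum total 15) left 14660 genes, and libraries were scaled by TMM. The quasi-likelihood F test of edgeR was run with the 4 groups in 1 model, with Benjamini-Hochberg adjustment across the genes tested and a threshold of 0.05. The SE was the log2 fold change over the root of its F statistic, the 95% interval used the fit's degrees of freedom, and log2 CPM used a prior count of 2. Counts without molecular identifiers are not independent molecules, so Poisson and binomial intervals cover counting error only. Alternatives were RLE size factors, no filter, DESeq2, the compared groups alone, each library or pair 3 of passage 6 left out, a term for each pair, and limma-voom. Replicates differed by 30.9 to 346 times sampling noise (chi-square per degree of freedom), so none was treated as a duplicate.

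Pairing was checked by the correlation, across genes, of deviations from group means. For the 2 substrates the 3 values ran from 0.23 to 0.434 at passage 3 and from 0.505 to 0.717 at passage 6. All exceed 0.1, while libraries of different number within a passage stood at 0.0385 or lower. Same-numbered libraries were therefore treated as paired within a passage, and the results with the pair term rest on this. No label gives this pairing, which was read from the counts. Between passages, libraries of equal number ran from -0.291 to 0.0389. Libraries of different number reached 0.32 on plastic and 0.272 on soft gel, both for library 2 of passage 3 with library 3 of passage 6. These values exceed the 0.23 of pair 1 of passage 3, so the cut of 0.1 alone does not mark a pair. Genes most like a member were ranked by Pearson's r of log2 CPM over the 12 libraries; of the 5 highest the first 2 are given, since the table holds no names. Promoter windows came from RefSeq, GRCr8; their motifs were chosen after the data were seen.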

Additional observations from a re-analysis of the deposited data

How the results depend on the processing

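The fits with a pair left out and limma-voom were added after the data were seen. With the replicate block (the pair term), the call of Lcn2 at passage 6 was gained, at 2.59. C3 stood at 3.05 there, and no call of C3 is read, since its choice used libraries of this comparison. The block changed no other call that is read for the 2 genes. It moved the genes called from 337 to 2749 at passage 3, from 1460 to 3650 at passage 6 and from 0 to 314 for the interaction. On plastic, C3 came under the threshold in DESeq2 (4.32), which called 2933 genes there. That fit includes plastic library 3 of passage 6, from the pair named in the choice of C3. Without pair 3 of passage 6, or its soft gel library alone, no call of C3 is read, since C3 was picked for its low level there; without the pair its values were 4.86 on plastic and 3.39 for soft gel at passage 6. Lcn2 lost both passage calls in limma-voom, at 5.34 on plastic and 5.76 on soft gel. With 1 library left out, the passage difference of C3 ran from 3.64 to 4.86 on plastic and from 4.95 to 7.71 on soft gel, and that of Lcn2 from 4.29 to 6.86 and from 4.97 to 7.28. The soft gel difference ran from -0.022 (reversed, without soft gel library 3 of passage 3) to 1.504 for C3 and from 0.59 to 3.51 for Lcn2 at passage 3, and from 1.70 to 4.05 and 1.62 to 3.57 at passage 6; with the block and a pair left out it ran from 0.08 to 1.43 and 0.37 to 3.83, then 2.53 to 3.56 and 2.18 to 2.82. Lcn2 passed at passage 6 without soft gel library 3 (3.46). The interaction of Lcn2 ran from -0.56 to 2.36, or -1.25 to 2.22 with the block, and that of C3 from 0.65 to 3.41, or 1.61 to 2.96. The sign-flip means ran from 1.41 to 2.30 for C3 and 1.91 to 2.69 for Lcn2, and were 1.82 and 2.35 with a prior count of 0.5. The cause of these shifts was not tested.

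The background counts moved more. With 1 library left out, genes called ran from 878 to 2127 (passage, plastic, 1968 in all), 802 to 2013 (passage, soft gel, 1797 in all), 34 to 538 (soft gel, passage 3), 878 to 1448 (soft gel, passage 6) and 0 to 9 (interaction); with the block and a pair left out, the last 3 ran from 1050 to 3218, 2575 to 3402 and 33 to 476. DESeq2 called 2725 (passage, soft gel), 1256 and 2269 (soft gel, passages 3 and 6) and 103 (interaction). With only the groups compared in the fit, 1045 passed (passage, soft gel), and 2109 and 189 (soft gel, passages 3 and 6), where a smaller model has its own estimate of the spread; the interaction needs all 4 groups and was not run so. Without pair 3 of passage 6 there were 1036 (soft gel, passage 3) and 2 (interaction), without the filter 1 (interaction), and in limma-voom 2407, 3434 and 83 for the last 3 comparisons. RLE size factors moved no call of C3 or Lcn2. With them 186 genes were called higher and 142 lower on soft gel at passage 3, against 165 and 172 with TMM. Low counts limit the values of passage 3, where Lcn2 rests on 1 to 63 counts a library.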
